A study of Mus musculus with 2 samples.

Results

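Prefix models are transcript models whose introns match the 5′ part of a longer model and which lack its remaining introns. Many propose an early 3′ end, but some keep an intron unspliced and reach the usual end, or end outside the annotated gene. Every model of an annotated gene that the deposited tables class as an incomplete splice match of the prefix subtype was taken. Coordinates came from the paired annotation. There were 1957 such models among 67968 models of annotated genes in replicate 1, and 819 among 42482 in replicate 2. Joined by gene and intron chain, 297 were present in both replicates. The longer model that a prefix model matches was an annotated transcript for 1570 and 665 models, and only a model new to that library for 387 and 154.

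Both libraries were long-read RNA-seq of gastrocnemius, the large calf muscle, from male B6CASTF1/J mice, the F1 hybrid of C57BL/6 and CAST/EiJ, aged 14 days, each started from 2 µg of RNA. They form 1 group of 2 biological replicates, so no treatment, genotype or age is compared. The labels give both replicates the same donor identifier and mention several males without saying whether tissue was pooled, so differences between replicates may be technical. The deposited tables counted 1141661 reads for replicate 1 and 642362 for replicate 2, and of these 1072978 and 605560 fell in annotated genes.

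A messenger RNA ends where the nascent transcript is cleaved and polyadenylated, usually a short way after the hexamer AAUAAA or a close variant. A gene can use an early end in 3 ways: inside an intron that is then not spliced out, at an alternative last exon, or inside an exon that is otherwise followed by more. Early ends shorten or replace the C-terminus of the protein, and in skeletal muscle alternative last exons are well known for triadin, a protein of the calcium release complex. In long-read libraries made with oligo-dT, priming on A-rich stretches inside a transcript also gives reads that stop early, and read chains with a retained final intron can be classed as prefixes although they reach the normal end.

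The sequences below are the last 30 bases of 8 early last exons with many prefix reads and the same 3′ end in both replicates, given 5′ to 3′ from the GENCODE M21 transcripts on the sense strand (mm10 coordinates). Capitals mark AATAAA or ATTAAA, the DNA forms of the 2 commonest polyadenylation signals. They are shown because these ends had both replicated reads and an annotated transcript end.
Trdn (chr10:33233897-33233926, plus strand): aacctgctttgtcaacaacggcccttgaag
Caprin1 (chr2:103767107-103767136, minus strand): cactcAATAAAtacttgttgaatgaatgaa
Slc25a23 (chr17:57047051-57047080, minus strand): ggccttcataaacccttcctcttgtctggg
Psmd1 (chr1:86132720-86132749, plus strand): accgctgtgttgtctattactgccaaagct
Phf10 (chr17:14947738-14947767, minus strand): tcaaaAATAAAtaagccaaaattgtttttg
Gprc5c (chr11:114869066-114869095, plus strand): ggtgcctAATAAAtacatttctgctttatt
Ankrd11 (chr8:122897020-122897049, minus strand): atgtaaatgaaAATAAAtaaaccagcttac
Lrp6 (chr6:134540774-134540803, minus strand): taaagcttatacaATTAAAaaatataaaaa
Caprin1, Phf10, Gprc5c and Ankrd11 carried AATAAA starting 25, 25, 23 and 19 bases before the end, and Lrp6 carried ATTAAA starting 17 bases before it. Trdn, Slc25a23 and Psmd1 had neither hexamer in the 50 bases before the end.

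The next sequence shows the 20 bases up to and including an end inside an internal exon, followed by the 20 bases after it, with runs of at least 4 A in capitals. It is shown because this end lies away from any annotated exon edge and had the most reads of its kind.
Son (chr16:91654680-91654719, plus strand, exon of Son-208): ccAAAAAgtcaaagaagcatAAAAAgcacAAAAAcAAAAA
After the Son end, 16 of 20 bases were A. Intronic ends could not be shown because only transcript sequences of this build were used here.

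Prefix models were a small part of each library and most rested on 1 read. They held 13559 reads in replicate 1, or 1.26% of reads in annotated genes (exact Clopper-Pearson 95% interval 1.24 to 1.28), and 1872 in replicate 2, or 0.309% (0.295 to 0.323). Most of the difference came from 1 chain of Aldoa, the muscle aldolase of glycolysis. That 9-exon chain held 8437 of 12159 Aldoa reads (69.4%) in replicate 1, where it was classed as a prefix, and 3715 of 5519 (67.3%) in replicate 2, where it was classed as a new combination of known splice sites. In replicate 1 its deposited end lay outside the annotated gene, where models held 8466 of the 13559 prefix reads (62.4%). Without this Aldoa chain the prefix share was 0.477% in replicate 1 (0.464 to 0.491), still above replicate 2. Models with 1 read made up 1547 of 1957 (79.0%) and 663 of 819 (81.0%). Intervals here cover counting error only, since the reads carry no molecular identifiers.

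By the position of the 3′ end, the shares of models were close in the 2 replicates. An annotated last exon held 928 models in replicate 1 (47.4%) and 399 in replicate 2 (48.7%). An exon that is internal in every annotated transcript of the gene held 625 (31.9%) and 276 (33.7%), an intron held 392 (20.0%, interval 18.3 to 21.9) and 133 (16.2%, 13.8 to 18.9), and 12 and 11 models ended outside the annotated gene. The models ending in a last exon were of different kinds. In 495 and 187 of them the final exon of the model retained at least 1 whole intron of the longer model, and the median end lay 5 and 3 bases from the annotated end of the gene. Of these, 314 (63.4%) and 116 (62.0%) ended within 100 bases of it, and the others ended earlier, by up to 90582 bases. Another 413 and 197 ended in an early last exon, meaning one that does not reach the distal end of the gene, with a median of 12105 and 9048 bases still to go. Only 20 and 15 ended in the distal last exon with no intron retained.

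**Figure D1:**
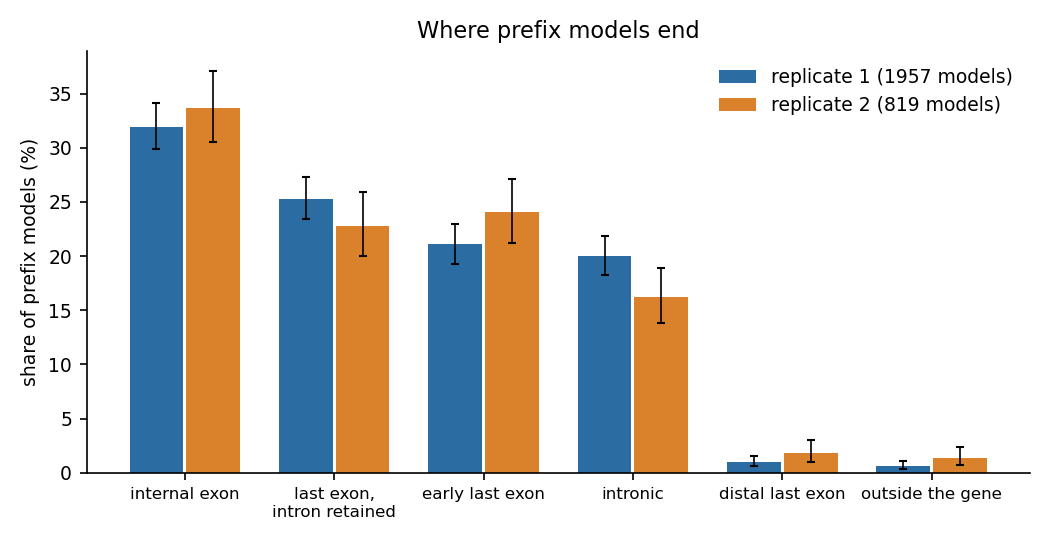
Share of prefix models (y axis, %) by place of the 3′ end (x axis) in replicate 1 (blue) and replicate 2 (orange); error bars are exact Clopper-Pearson 95% intervals for counting error. Ends in annotated last exons are split here into 3 kinds (intron retained, early, distal), which together held 47.4% and 48.7%; internal exons held 31.9% and 33.7%, and introns 20.0% and 16.2%.

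The deposited ends were not free read ends. In replicate 1, 853 of 928 last-exon ends (91.9%) and 513 of 625 internal-exon ends (82.1%) lay exactly on the 3′ edge of an annotated exon, and in replicate 2 these were 368 of 399 (92.2%) and 221 of 276 (80.1%). Of the intronic ends, 19 of 392 and 14 of 133 lay under 300 bases from an exon, and the median distances were 762 and 653 bases. Each model also has 1 deposited end however many reads it holds. Equal ends in the replicates are therefore not independent observations of a cleavage site, and where the single reads of a model stopped was not analysed here.

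The 297 chains found in both replicates made up 15.2% of the models of replicate 1 and 36.3% of those of replicate 2, in 241 genes, and 103 of them had 1 read in each. Their deposited 3′ ends were the same base in 183 (61.6%) and within 10 bases in 218 (73.4%). Of 198 chains that ended on an annotated exon edge in both, 160 shared the base. Of 63 that ended off an edge in both, 23 shared the base and 35 were within 10 bases. The place was the same in both replicates for 162 last-exon ends, 67 internal-exon ends, 37 intronic ends and 1 end outside the gene. The 104 chains with an intronic or internal-exon end in both, called early-ending below, lay in 83 genes and held 874 reads in replicate 1 and 410 in replicate 2, or 0.0815% and 0.0677% of reads in annotated genes. Only 8 of them had at least 5 reads in each replicate.

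**Figure D2:**
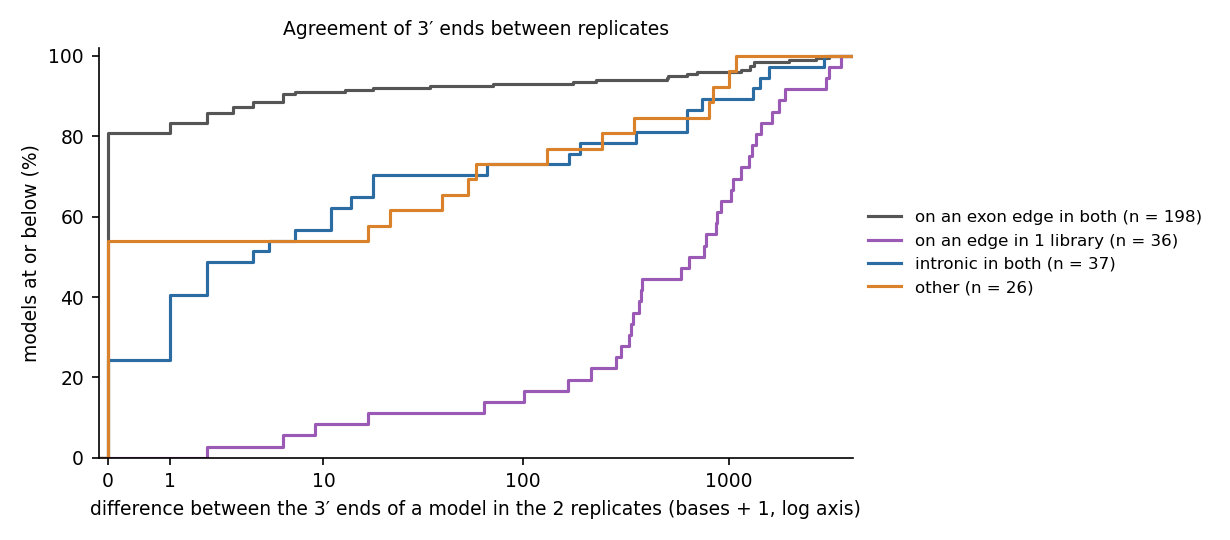
Cumulative share of the 297 chains found in both replicates (y axis, %) against the distance between their 3′ ends in the 2 replicates (x axis, bases plus 1, log axis), by whether the ends lie on an annotated exon edge. The 198 chains on an edge in both start at 160 with the same base, and the 37 intronic chains start at 9 and reach 21 within 10 bases.

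The 37 intronic chains lay in 34 genes and kept a median of 6 introns while lacking a median of 2. In 36 the end fell in the next intron of the longer model. Those introns had a median length of 2884 bases (1325 to 45749), against 1404 for all 149877 annotated introns of genes read in both replicates, and the ends lay a median of 844 bases past the splice donor. A longer intron has more room to hold an end, and the contrast was not corrected for that. Of the 36 chains in genes with an annotated coding region, 35 ended before the last annotated stop codon. The ends were the same base in 9, within 10 bases in 21 and within 100 in 27, with a median difference of 4 bases and a largest of 2898. In 14 chains each replicate had 1 read, and 4 chains had at least 5 reads in each.

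Atp2a1 had the most reads with an intronic end. It encodes SERCA1, the calcium pump that refills the sarcoplasmic reticulum of fast fibres. An 8-exon chain ended inside an intron of 2926 bases (chr7:126453451-126456376), at position 126454001 in replicate 1 and 126454356 in replicate 2, so 2376 and 2021 bases past the donor. It held 517 of 102580 Atp2a1 reads in replicate 1 (0.504%, interval 0.462 to 0.549) and 178 of 37227 in replicate 2 (0.478%, 0.411 to 0.554). The shares were alike in the replicates, and the mean over them was 0.491% ± 0.0183 (SD, n = 2). Counting every class of model that ended in this intron gave 532 and 192 reads, or 0.519% and 0.516%. The longer models it matches were not annotated in either library.

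Trdn, triadin, had the second highest intronic count. A 21-exon chain ended 4233 bases (replicate 1) and 3604 bases (replicate 2) into an intron of 13875 bases, with 40 of 864 reads (4.63%) and 24 of 1055 (2.27%). Another 21-exon chain, whose ends differed by 2898 bases between the replicates, added 17 and 7 reads. All classes of model that ended in the 13875-base intron held 103 reads in replicate 1 (11.9%, 9.84 to 14.3) and 58 in replicate 2 (5.50%, 4.20 to 7.05), so replicate 1 was higher and the intervals did not meet.

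Fam120aos, a gene annotated beside Fam120a and named as its antisense, was read almost wholly through an intronic end. A 2-exon chain ended 616 and 617 bases past the donor of an intron of 1632 bases on chromosome 13, at 48969902 and 48969903, and held 11 of 12 reads in replicate 1 and 9 of 10 in replicate 2 (91.7%, interval 61.5 to 99.8, and 90.0%, 55.5 to 99.7). Whether the counting used strand is not given in the sources used here.

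The other genes with the most intronic reads had few. Ngly1, a deglycosylating enzyme, had 4 of 70 and 6 of 36 reads on a 4-exon chain whose ends lay 1574 bases apart. Rhot1, a mitochondrial GTPase, had 6 of 59 and 1 of 27 with ends 2 bases apart. Nsd1, a histone methyltransferase, had 3 of 24 and 2 of 15 with ends 1 base apart. Ckm and Eno3 were read so deeply that such chains were traces. Ckm, muscle creatine kinase, had 7 of 72878 and 1 of 43595 reads, and Eno3, muscle enolase, had 5 of 10707 and 3 of 5763 on 2 chains. Ndufa10, a complex I subunit, had 3 of 505 and 2 of 290. Every class of model ending in that Ndufa10 intron held 16 reads (3.17%) and 22 (7.59%). Tnnt3, fast troponin T, had 3 of 1528 and 2 of 1378. Cep85l, with 2 of 12 and 2 of 3 reads, and the nucleoporin gene Nupl1, with 3 of 3 and 1 of 3, were too sparse to give a share.

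The 67 chains that ended in an internal exon in both replicates lay in 52 genes. Of these, 50 ended on an exon edge in both, 11 ended off an edge in both, and 27 had 1 read in each replicate. A-rich sequence after the end was more frequent than over exon positions in general, on few ends. Among ends off the edge with 20 bases of sequence after them, 8 of 104 in replicate 1 (7.69%, interval 3.38 to 14.6) and 3 of 48 in replicate 2 (6.25%, 1.31 to 17.2) had at least 12 A in those bases. Of all 21784304 windows of 20 bases in internal exons of genes read in both, 0.541% did. No test was made, and the windows overlap one another. AATAAA or ATTAAA stood in the 50 bases before 9 of 104 and 5 of 48 of the same ends.

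Son had the most reads of any internal-exon end. It encodes a nuclear speckle protein needed for splicing. Its 3-exon chain ended at 91654699 on chromosome 16 in both replicates, at the A-rich stretch shown above, with 13 of 32 reads in replicate 1 (40.6%, 23.7 to 59.4) and 16 of 20 in replicate 2 (80.0%, 56.3 to 94.3). The end lay 24522 bases before the annotated end of the gene.

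Sec62, a component of the protein translocation machinery of the endoplasmic reticulum, had 11 of 74 reads (14.9%) and 12 of 49 (24.5%) on a 4-exon chain that lacked 4 introns. Pofut2, a protein O-fucosyltransferase, had 6 of 43 (14.0%) and 8 of 24 (33.3%) on a 2-exon chain. Ptgr2, a prostaglandin reductase, had 12 of 97 (12.4%) and 5 of 40 (12.5%) on 2 chains. Sec62, Pofut2 and Ptgr2 all ended on an exon edge, the same base in both replicates.

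Eif5b, a translation initiation factor, had 9 of 29 and 5 of 11 reads on 2 chains. Zfp938, a zinc-finger gene, had 6 of 12 and 7 of 8, and Ccnl2, cyclin L2, had 6 of 61 and 4 of 13 with ends 336 bases apart. Hnrnpa2b1, an RNA-binding splicing regulator, had more reads in the shallower library: 2 of 324 reads in replicate 1 (0.617%, 0.0748 to 2.21) against 10 of 290 in replicate 2 (3.45%, 1.67 to 6.25). That 2-exon chain did not end before the last annotated stop codon, and its end lay 988 bases from the gene end. The longer models it matches were not annotated in either library. Kif5b, a kinesin heavy chain, had 7 of 103 and 2 of 38.

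In Myh4, Trdn and Atp2a1 the reads with internal-exon ends were spread over several chains. Myh4, the myosin heavy chain of fast IIb fibres, had 4 chains, of 12, 22, 25 and 33 exons, with 38 of 18473 reads (0.206%, interval 0.146 to 0.282) and 8 of 7180 (0.111%, 0.0481 to 0.219). Trdn had 5 chains, with 24 and 8 reads. Atp2a1 had 4, with 5 and 4 reads. None of these chains held more than 13 reads in a replicate.

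The reads on all early-ending chains were set against all reads of their gene. Of the 83 genes, 39 had at least 20 reads in each replicate, which is 1.41% of the 2767 annotated genes at that depth. Among the 39, the mean share over the replicates had a median of 1.32% and ran from 0.00168% to 60.3%, with 5 genes over 10% (Son, Pofut2, Sec62, Ptgr2 and Ngly1) and 17 under 1%. Next came Rhot1 at 10.2% and 3.70%, Trdn at 9.38% (7.51 to 11.5) and 3.70% (2.64 to 5.02), and Kif5b at 6.80% and 5.26%. Ctnnbl1, a spliceosome-associated gene, had 2 of 31 and 1 of 25 reads, Mypn, the sarcomere protein myopalladin, 6 of 140 and 1 of 44, and Dnajc3, a chaperone of the endoplasmic reticulum, 1 of 56 and 1 of 32. The order is a description: among the genes named in this paragraph the intervals of neighbours overlapped in both replicates, other than those of Son and Pofut2 in replicate 2, and the high shares belong to genes with few reads.

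**Figure D3:**
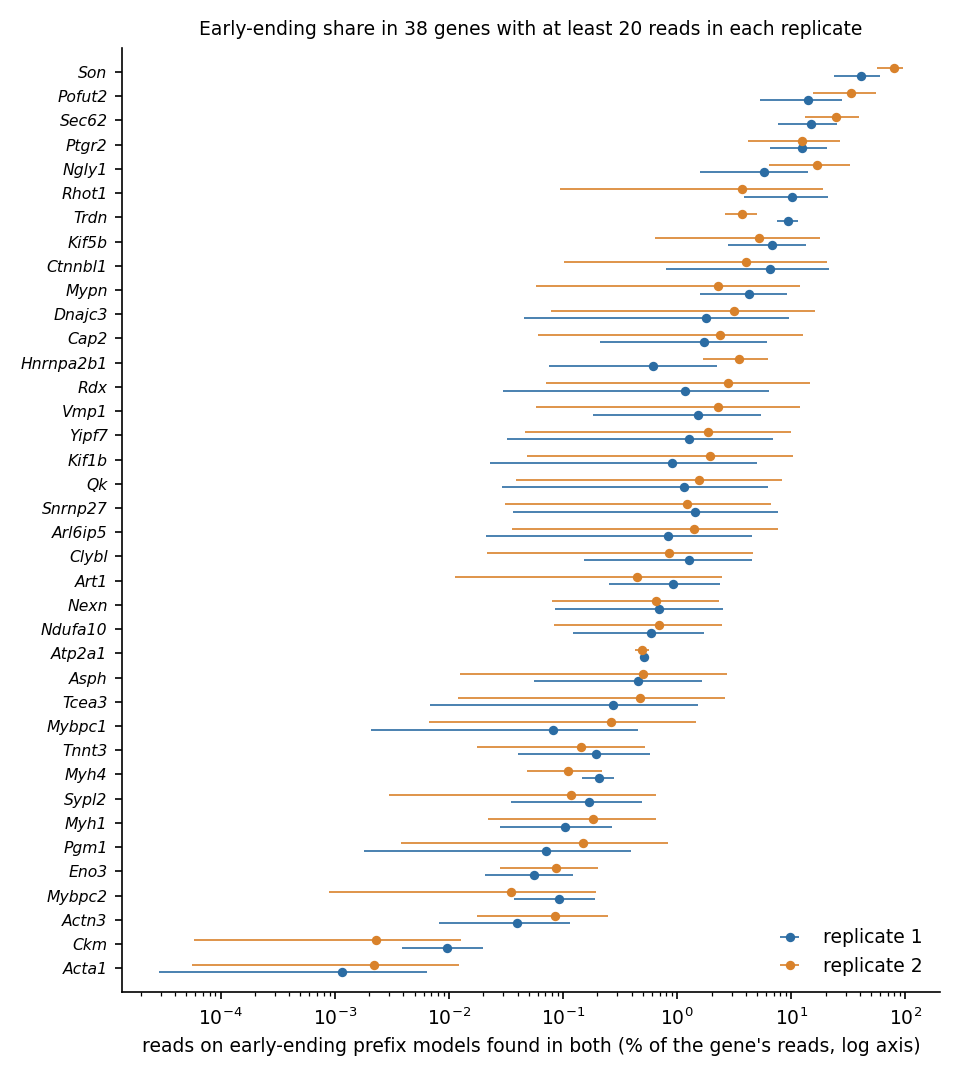
Reads on early-ending prefix models found in both replicates, as % of the gene's reads (x axis, log axis), for 38 of the 39 genes with at least 20 reads in each replicate (y axis), in replicate 1 (blue) and replicate 2 (orange); bars are exact Clopper-Pearson 95% intervals. Son lies highest at 40.6% and 80.0%, and Atp2a1 has the narrowest intervals relative to its share.

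Early last exons are last exons of annotated transcripts that stop before the distal end of the gene. The class was set by the end base alone, so longer models may splice onward from the same exon, as for Trdn and Psmd1. There were 73 chains with such an end in both replicates, in 69 genes, with 659 and 336 reads, and 66 of them ended on an exon edge in both. The annotated transcripts that own these last exons were protein coding for 33 chains, retained-intron transcripts for 22 and nonsense-mediated decay transcripts for 6. Signals were counted over all 413 and 197 early last exon models of each library, found in both or not. Of those on an annotated transcript end, 133 of 336 in replicate 1 (39.6%, interval 34.3 to 45.0) and 69 of 172 in replicate 2 (40.1%, 32.7 to 47.9) had AATAAA or ATTAAA in the 50 bases before it on the sense strand. The share was 37.3% over all 65212 annotated ends of genes read in both, 51.0% over protein-coding transcripts and 21.2% over retained-intron transcripts.

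Trdn led this set by far. A 10-exon chain ended on the last exon of Trdn-206 and Trdn-207, at 33233926 on chromosome 10. It lacked at least 28 introns of each longer model it matched. In none of those models did the end fall in the next intron, so it lay in an exon that a longer model splices onward. A distinct last exon and a stop within an exon spliced onward cannot be told apart here. The chain held 336 of 864 reads in replicate 1 (38.9%, 35.6 to 42.2) and 186 of 1055 in replicate 2 (17.6%, 15.4 to 20.1). Every class of model with its end at that base together held 525 reads (60.8%, 57.4 to 64.0) and 790 (74.9%, 72.1 to 77.5). Replicate 1 was therefore higher on prefix models and lower over all models. At this end replicate 1 had 158 reads on suffix models, which lack 5′ introns, and replicate 2 had 578. A read that lacks 5′ introns is classed elsewhere than as a prefix.

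**Figure D4:**
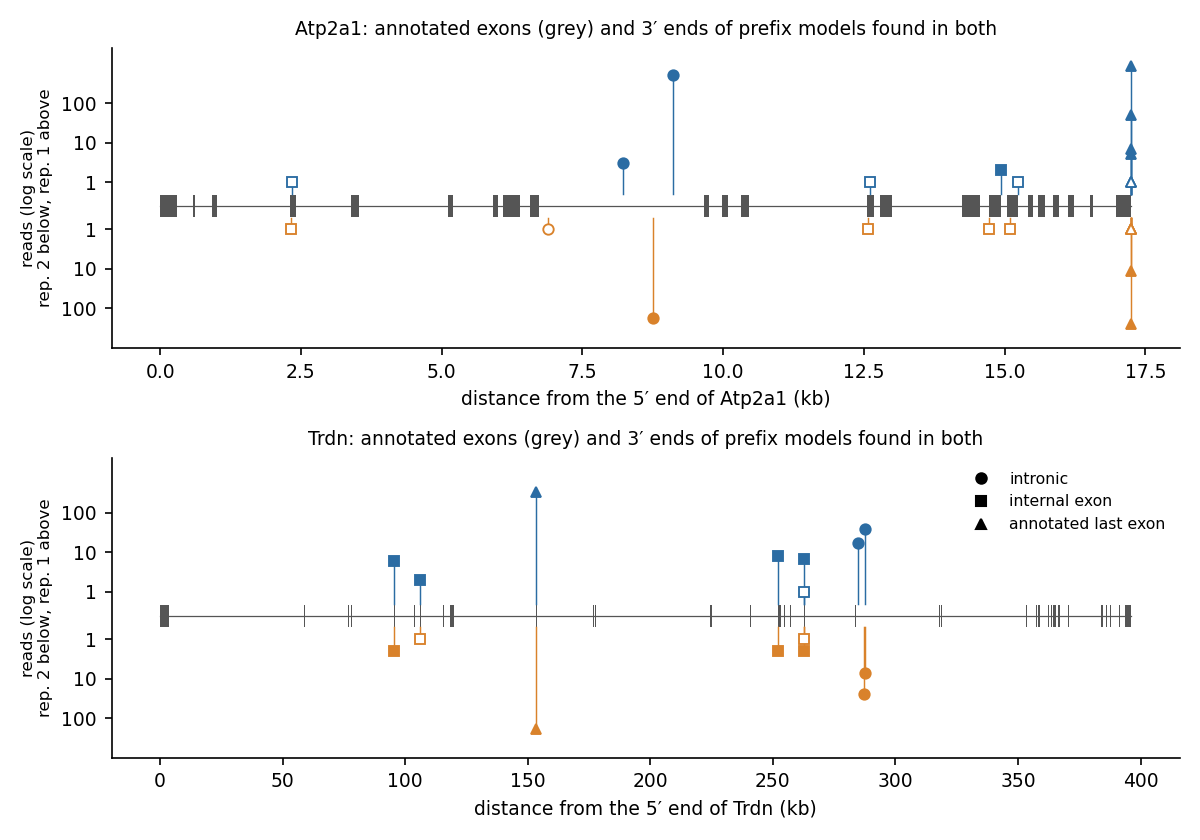
Positions of the 3′ ends of prefix models found in both replicates along Atp2a1 and Trdn (x axis, kb from the annotated 5′ end; grey boxes are annotated exons), with reads on a log scale (y axis) above the gene for replicate 1 (blue) and below it for replicate 2 (orange); open symbols are models with 1 read. The highest intronic mark of Atp2a1 stands for 517 and 178 reads, and the Trdn triangle for 336 and 186.

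Other early last exons with replicated reads, ordered by reads and so chosen after their values were seen, served genes of many functions. Synpo, the actin-associated protein synaptopodin, had 25 of 61 reads (41.0%) and 8 of 18 (44.4%). Caprin1, an RNA-binding protein of stress granules, had 21 of 86 reads (24.4%) and 6 of 43 (14.0%). Slc25a23, a mitochondrial ATP-Mg carrier, had 21 of 26 (80.8%) and 5 of 6 (83.3%). Psmd1, a proteasome subunit, had 18 of 144 (12.5%) and 5 of 47 (10.6%). Phf10, a chromatin remodelling subunit, had 17 of 56 and 4 of 29 on its main chain. Gprc5c, an orphan receptor, had 18 of 51 and 3 of 14. All these ends were at the same base in both replicates. As prefix reads, the percentages of Synpo, Slc25a23 and Psmd1 were close in the replicates. Those of Caprin1, Phf10 and Gprc5c were higher in replicate 1 on few reads. In replicate 2 the intervals were wide, 21.5 to 69.2 for Synpo and 35.9 to 99.6 for Slc25a23. Over every class of model at the same base, Synpo had 42.6% and 72.2%, and Gprc5c 51.0% and 57.1%. Caprin1 (29.1% and 20.9%) and Phf10 (64.3% and 34.5%) stayed higher in replicate 1. Slc25a23 had 88.5% and 83.3%, and Psmd1 12.5% and 12.8%.

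Ankrd11, a chromatin regulator, had 15 of 29 and 3 of 9 reads. Lrp6, a Wnt co-receptor, had 11 of 18 and 5 of 10 on a 2-exon chain that lacked 21 introns and ended on a retained-intron transcript. Brap, a BRCA1-binding ubiquitin ligase, had 8 of 39 (20.5%) and 5 of 24 (20.8%). Luc7l2, a splicing factor, had 15 of 41 and 4 of 19, and Sik3, a kinase, had 9 of 13 and 6 of 12; their ends differed between the replicates, by 380 and 366 bases.

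Chains whose final exon retained an intron were found in both replicates 81 times, in 65 genes, with 1272 and 444 reads. By the end in replicate 1, 56 of the 81 (69.1%) lay within 100 bases of the annotated end of the gene and 25 lay further from it. They lacked 1 intron in 73 of the 81, and 73 ended on an exon edge in both. Signals were counted over all 495 and 187 intron-retaining models of each library, found in both or not. AATAAA or ATTAAA stood before 390 of 457 of their annotated ends in replicate 1 (85.3%, 81.8 to 88.5) and 141 of 164 in replicate 2 (86.0%, 79.7 to 90.9), the highest share of the sets measured. A 21-exon Atp2a1 chain with a final exon of 729 bases held 870 of 102580 reads (0.848%, 0.793 to 0.906) and 243 of 37227 (0.653%, 0.573 to 0.740). Actn3, the fast-fibre actinin, had 51 of 7532 (0.677%) and 33 of 3506 (0.941%). Hrc, a calcium-binding protein of the reticulum lumen, had 8 of 754 and 16 of 1795, and Ak1, adenylate kinase, had 12 of 6046 and 12 of 3150. Mbd3, a chromatin reader, had 12 of 151 reads (7.95%) and 8 of 57 (14.0%) on its chain with the most reads, and 9 and 2 reads on another. All these named chains retained an intron of the longer model.

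The prefix share of a gene's reads was compared between the libraries by a two-sided Fisher's exact test for each gene with at least 20 reads in each and at least 10 prefix reads in all. It compares these 2 libraries, not conditions. Of 56 genes tested, 12 differed at an adjusted p under 0.05 (Benjamini-Hochberg), which is 21.4% of those tested, 9 higher in replicate 1 (16.1%) and 3 higher in replicate 2 (5.36%). At an unadjusted p under 0.05 there were 18. With each chain that either library classed as a prefix counted in both libraries, a setting chosen after the data were seen, 5 of 60 genes differed (8.33%): Trdn, Arfgap2, Atp2a1, Nexn and Ddx5.

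The difference was large for Trdn, at 464 of 864 prefix reads (53.7%) against 240 of 1055 (22.7%; Fisher's exact test, adjusted p = 1.98e-43), and it was 54.9% against 23.8% with chains joined. It holds for prefix reads only. Over every class of model at the main Trdn end the order was reversed, 60.8% against 74.9%, with 158 and 578 reads on suffix models. Atp2a1 differed by little, 1554 of 102580 (1.51%) against 451 of 37227 (1.21%; Fisher's exact test, adjusted p = 0.000176). Arfgap2, a regulator of Golgi transport, had 0 of 264 prefix reads in replicate 1, which allows up to 3 reads, and 20 of 97 (20.6%) in replicate 2, on a chain that ended outside the annotated gene (Fisher's exact test, adjusted p = 1.50e-11). Son differed with an adjusted p of 0.0467 by the same exact test. With chains joined its reads were the same (40.6% against 80.0%), and the adjusted p was 0.0733. Ddx5, an RNA helicase, had 15 of 216 prefix reads in replicate 1 and none in replicate 2 (Fisher's exact test, adjusted p = 0.0224).

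The calls for Aldoa, Dus1l, Ehbp1l1, Clip4, Prr33 and Fxyd1 were also lost with chains joined. For Fxyd1 the shares were unchanged (0.800% against 0.200%), and the adjusted p went from 0.0494 to 0.0733 in the same exact test. Dus1l, a tRNA-modifying enzyme, went from 42.7% against 0 to 42.7% against 19.5%, and Clip4, a microtubule-associated gene, from 60.0% against 18.2% to 60.0% against 63.6%. Ehbp1l1 went from 7.26% against 0 to 7.26% against 10.7%. Nexn, a Z-disc protein, was not called as classed (3.15% against 6.21%) and was called with chains joined (15.4% against 6.21%; Fisher's exact test, adjusted p = 0.00445). Ckmt2 and Eno3, the next genes with the higher share in replicate 2, did not pass (adjusted p = 0.273 for each, exact test).

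When intronic and internal-exon ends alone were counted, 1 of 21 genes differed. It was Trdn, at 110 of 864 reads (12.7%) against 52 of 1055 (4.93%; Fisher's exact test, adjusted p = 2.12e-08).

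By function, early-ending chains found in both were seen in 7 of 25 sarcomere genes (Acta1, Actn3, Mybpc1, Mybpc2, Myh1, Myh4 and Tnnt3), 3 of 17 calcium-handling genes (Asph, Atp2a1 and Trdn), 2 of 22 splicing regulators (Hnrnpa2b1 and Qk) and 1 of 18 genes of glycolysis and glycogen (Eno3). At a depth of at least 20 reads in each replicate these were 28.0% of sarcomere genes, 20.0% of calcium-handling genes, 16.7% of splicing regulators and 5.88% of glycolysis genes, against 1.41% (39 of 2767) of all genes. None was seen in 21 factors of 3′ end processing, 7 genes known for intronic polyadenylation, 12 giant muscle transcripts or 16 matrix genes. Depth bounds this: of the end-processing factors 1 had 20 reads in each replicate, and of the genes known for intronic polyadenylation none had. The Hnrnpa2b1 chain counted here did not end before the last annotated stop codon. Chains ending in annotated early last exons are outside these counts. Rbbp6, listed under both end processing and intronic polyadenylation, had such a chain in both replicates, with 1 of 15 and 1 of 7 reads. The giant gene Ttn also had such a chain, with 2 of 246 and 1 of 77 reads. Of reads in the sarcomere list 0.0608% and 0.0322% were on prefix models with an intronic or internal-exon end in that library, against 0.184% and 0.127% over all annotated genes, and in the calcium list 0.529% and 0.478%, most of them on Atp2a1. It was 2.82% and 0.496% for the giant muscle transcripts, from 45 and 3 reads on models none of which was early-ending in both replicates. Among genes with at least 20 reads in each replicate, the median of this share was 0.0671% in the sarcomere list, 0.449% for the giant transcripts, 0.0132% for glycolysis and 0 in the calcium, splicing and matrix lists and over all genes. The sarcomere genes are also among the most deeply read, and the part of depth in these counts was not tested.

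Genes with at least 100 reads in each replicate were also split by transcript length. The share with a prefix read ending in an intron or internal exon in that library, found in both or not, was higher for longer transcripts. It was 3 of 132 (2.27%) in replicate 1 and 8 of 132 (6.06%) in replicate 2 where the longest annotated transcript was at most 1000 bases, and 24 of 75 (32.0%) and 14 of 75 (18.7%) where it was over 4000 bases. The classes between were 1000 to 2000 and 2000 to 4000 bases. From short to long, median gene reads were 248, 345, 353 and 383 in replicate 1 and 270, 215, 183 and 181 in replicate 2. The part of depth in these shares was not tested.

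All 6 markers of fast skeletal muscle were present, at 300707 and 282734 reads per 1000000. Fibroblast markers stood at 6558 and 2505, erythroid markers at 621 and 1138, and Schwann cell markers at 134 and 292 on the same scale. Their part in the differences between the replicates was not tested, and fewer cells of a type cannot be told apart from less RNA per cell.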

How the data were processed

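The authors deposited, for each library, whole read counts per transcript model and a matching annotation whose source field names TALON. Per the file headers and descriptions, these were made per library on mm10 with GENCODE M21. Which aligner, read correction and rules for model ends were used is not stated there. Spike-in reads were set aside (47054 and 16073).

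Models were joined by gene, strand and intron chain. Where a model matched several longer models, the introns it lacked were counted against the match that gave the fewest. The place of each 3′ end was set against GENCODE M21 exons, and the split of last exons into early, distal and intron-retaining was made after the data were seen. Shares carry exact Clopper-Pearson 95% intervals, and a count of 0 was read as allowing 3 reads. Sequences came from GENCODE M21 transcripts. Motifs were AATAAA and ATTAAA, searched on the sense strand only because 3′ ends have a strand. The test per gene was checked on simulated data. Tests used scipy 1.17.1 and statsmodels 0.14.6, tables pandas 2.3.3, and plots matplotlib 3.10.9, under Python 3.11.15.

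The members and the 8 gene lists were chosen with earlier results of these data known. Named genes were the 12 with most reads on intronic and the 12 on internal-exon chains of both libraries, the 12 with the highest mean share among genes with at least 20 reads in each, and the 6 smallest adjusted p in each direction; other named genes were taken by reads. A few genes and a sequence that these rules select are not reported here.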

Additional observations from a re-analysis of the deposited data

Results flagged for a closer look

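Prefix models also occurred at antisense and intergenic loci, which no comparison above used. There were 6 such models with 7 reads in replicate 1 and 5 with 6 reads in replicate 2, above the 3 reads that a count of 0 allows.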

How the results depend on the processing

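No paired analysis was possible because both libraries belong to 1 group. Of the alternatives tried, 27 left the count or share within its limits and 15 moved it. For single genes 28 did and 4 moved. For shares averaged over the libraries, the limit was the SD between them. Leaving out either library always stays within that limit, whatever the values. The 27 and the 28 include such settings, which therefore cannot show that a share is stable. Thus 0.309% and 1.26% of reads both counted as within the limits of a mean of 0.786% (SD 0.675). Read minimums mattered most. With at least 2 and 5 reads per model the mean number of prefix models fell from 1388 to 283 and 69.0, the chains found in both from 297 to 100 and 24, their intronic ends (by replicate 1) from 43 to 11 and 4, and their internal-exon ends from 77 to 26 and 4. Left out in turn, the libraries gave 819 and 1957 models, 0.309% and 1.26% of reads, and 0.0677% and 0.0815% on early-ending chains. Replicate 1 thinned to the depth of replicate 2 kept 1278 prefix models, against 819. With at least 5 reads the ends within 10 bases rose to 79.2%. Counting every prefix model with an intronic or internal-exon end in its library, found in both or not, gave 0.155% of reads, against 0.0746%. Genes whose prefix share differed fell from 12 to 1 with intronic and internal-exon ends alone and to 5 with chains joined across classes. Asking for 10 A in place of 12 raised the A-rich internal-exon ends to 19.2% in replicate 1 and 8.33% in replicate 2, and all windows to 2.92%, and AATAAA alone stood before 31.5% of early last exon ends. Chains found in both, and tests between the libraries, have no value with 1 library left out.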
